A study of Mus musculus with 11 samples.

Results

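Mitochondrial ribosomal protein genes encode the protein subunits of the ribosome inside mitochondria. They are transcribed in the nucleus and translated in the cytosol, and the proteins are imported to join RNAs made from the mitochondrial genome. The finished ribosome translates only the few proteins of the respiratory chain and ATP synthase that the mitochondrial genome encodes. Genes named Mrpl encode large-subunit proteins and genes named Mrps small-subunit proteins, although the products of Mrps18a and Mrps30 sit in the large subunit. Some of these proteins have a counterpart in the bacterial ribosome, and the others were added in the mitochondrial lineage. The protein of Mrps36 has since been placed in the alpha-ketoglutarate dehydrogenase complex and not in the ribosome.

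The genes were taken as all RefSeq protein-coding entries whose symbol begins with Mrpl or Mrps followed by a digit. This gave 77 genes, each with 1 entry, of the 48942 features in the Dicer table, and the same number of the 39889 features in the cMyc table. The annotation lists 78 protein-coding genes with such a symbol. RNA came from embryonic stem cells (ESCs) of mouse strain 129S4/SvJae, grown on gelatin without feeder cells, and was selected for poly(A) tails. The Dicer comparison set 2 libraries of wild-type cells (Dcr WT libraries 1 and 2) against 3 lines labelled as Dicer knockouts (Dcr KO lines 1, 3 and 4). Dicer is the enzyme that cuts microRNA precursors. The cMyc comparison set 1 library of cells with floxed cMyc alleles (cMyc flox), which serves as the control, against 1 library of cMyc knockout cells (cMyc KO). The labels name neither a Cre driver nor the deleted exons. Whether the wild-type libraries came from separate cultures is not stated, so their spread may be technical. The p-values measure only spread within the genotypes used here, between the 2 wild-type libraries and between the 3 knockout lines.

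Depth was 101815723 to 278006158 reads in the Dicer libraries and 24660365 and 31633011 in cMyc flox and cMyc KO. Ribosomal RNA features held 28.1% of the reads in cMyc flox and 30.0% in cMyc KO, and 0% in each Dicer library. mRNAs held 62.3% in cMyc flox, 60.9% in cMyc KO and 91.4 to 93.2% in the Dicer libraries. Whether ribosomal RNA features were counted in the Dicer libraries is not stated, so neither share can be compared between the Dicer and cMyc libraries. A mitochondrial ribosomal protein gene had at least 278 reads in each Dicer library (median 7615) and at least 195 over both cMyc libraries (median 1246). Dicer1 fell 2.24-fold in Dcr KO, from 19462 ± 947 (SD, n = 2) to 8696 ± 1033 (SD, n = 3; limma adjusted p = 0.000556), and a value over the whole gene cannot show the deletion itself. Myc fell from 9231 ± 2479 to 917 ± 422, and stood at 470.0 in cMyc flox and 10.9 in cMyc KO, the latter from 12 reads. The ESC markers Pou5f1, Sox2, Nanog, Zfp42, Esrrb, Utf1, Tdgf1 and Dppa5a summed to 922878 or more in each Dicer library. Of these, Tdgf1 was lower in Dcr KO and 0 were higher. The 8 fibroblast markers summed to between 6469.8 and 11452 in the wild-type libraries and between 1270.2 and 1664 in the knockout lines, with 5 lower and 1 higher. Of these, Col3a1, Lum and Postn were under 100 in every Dicer library. The 8 neural markers summed to 31255 to 53283 in wild type and 56874 to 69608 in the knockout lines, with 3 higher and 1 lower. The 8 primitive endoderm markers summed to 2178 to 3496 and 2098 to 2443, with 3 lower, 0 higher and Afp at 0 throughout. The part of these cell types in the results was not tested.

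Most mitochondrial ribosomal protein genes had less mRNA in the Dicer knockout ESCs. Of the 77, all of which passed the filter on low values, 41 were lower and 2 higher in Dcr KO (limma on log2(value + 1), Benjamini-Hochberg adjusted p under 0.05). Among all 42358 features tested, 14.8% were lower and 16.9% higher, and among the 17140 mRNAs 22.7% were lower and 20.5% higher. The median log2 fold change was −0.56, against −0.06 for mRNAs. Of the 34 genes that did not pass, 23 had a negative and 11 a positive estimate. In 52 genes every knockout line lay below both wild-type libraries, an arrangement seen in 35.4% of mRNAs and 27.4% of all features, and all 41 genes that fell were among them. In 4 genes every knockout line lay above both, an arrangement seen in 30.8% of mRNAs and 30.0% of all features. These were Mrps15 and Mrps22, which passed the test, and Mrpl19 and Mrpl35, which did not (adjusted p = 0.0884 and 0.0921).

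**Figure D1:**
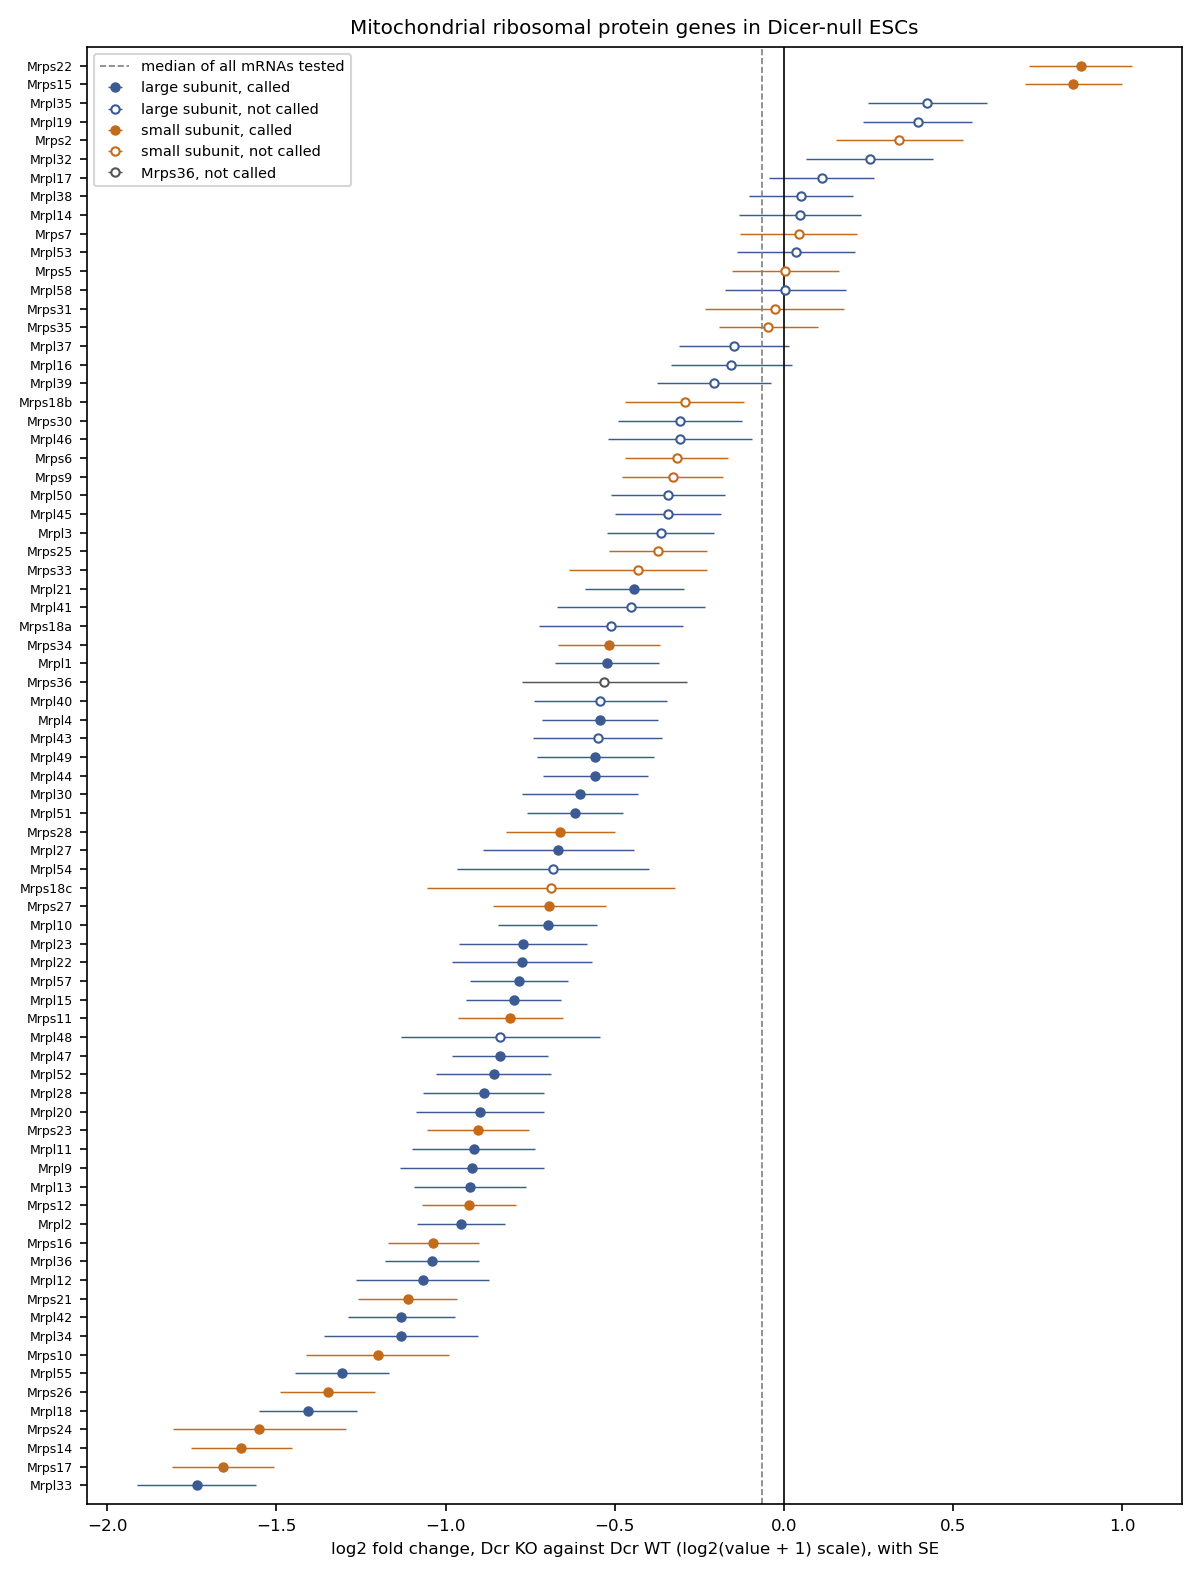
Log2 fold change of each of the 77 genes in Dcr KO against Dcr WT (horizontal axis, with its standard error), ordered from the largest fall to the largest rise. Filled points passed the test (41 lower, 2 higher), colour gives the subunit, and the dashed line is the median of all mRNAs tested (−0.06).

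The genes also took a smaller part of the libraries. Their share of mRNA reads was 0.498% in the first and 0.455% in the second wild-type library, and 0.329% in knockout line 1, 0.316% in line 3 and 0.311% in line 4. Their summed normalised read counts were 933062 and 787613 in the wild-type libraries and 674594, 625168 and 558161 in the knockout lines, with no overlap between genotypes. The mean of the sums was 1.39-fold higher in Dcr WT. In bulk RNA, less mRNA per cell and fewer cells that carry it cannot be told apart.

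The largest fall was in Mrpl33, the counterpart of a small bacterial large-subunit protein. Its normalised read count was 4545 in wild-type library 1, 6053 in library 2, 1711 in knockout line 1, 1457 in line 3 and 1564 in line 4, the order kept for the other genes. The knockout lines lay close together and far under both wild-type libraries, a 3.36-fold difference in means (log2 fold change −1.74 ± 0.18 (SE), limma adjusted p = 0.000174). Mrps17, a small-subunit protein whose bacterial counterpart binds ribosomal RNA, stood at 16072 and 12637 in wild type and at 4588, 4416 and 4544 in the knockout lines. Its fold change was −1.66 ± 0.15 (adjusted p = 0.000103 in limma). Mrps14, another small-subunit protein shared with bacteria, gave 9733 and 9344 against 3458, 2817 and 3171, so that here the wild-type libraries were close as well (−1.60 ± 0.15, limma adjusted p = 0.000116).

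Mrps24, the mitochondrial counterpart of bacterial ribosomal protein S3, was the most variable of the strongly reduced genes. Wild-type values were 29506 and 19265, and knockout values 5900.1, 10526 and 8680.2, with line 1 lowest (−1.55 ± 0.26, limma adjusted p = 0.00203). Mrpl18 gave 16535 and 16146 against 6946, 5955 and 5656, a 2.64-fold difference. Mrps26, a protein without a bacterial counterpart, gave 6439.6 and 6470.5 against 2458, 2609 and 2538, a 2.55-fold difference with very little spread in either genotype. Mrpl55, the counterpart of bacterial L31, gave 9009 and 9726 against 3938, 3766 and 3648 and fell 2.48-fold. In Mrps10 the wild-type libraries were far apart, at 8105 and 4998, yet both lay above the knockout lines at 3094, 2709 and 2536 (2.36-fold; limma adjusted p = 0.00289). Log2 fold changes of these last 4 genes ran from −1.41 in Mrpl18 to −1.20 in Mrps10.

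Against that direction, 2 small-subunit genes rose. Mrps22, a protein found only in mitochondrial ribosomes and one whose inherited loss disturbs the respiratory chain, had values of 5727 and 6003 in Dcr WT and of 11758, 11398 and 9349 in Dcr KO. It rose 1.85-fold (log2 fold change 0.88 ± 0.15, limma adjusted p = 0.00264). Mrps15, which has a bacterial counterpart, stood at 12366 and 13549.8 in wild type and 23588, 25741 and 21191 in the knockout lines. It rose 1.81-fold (0.86 ± 0.14, limma adjusted p = 0.00218). In both genes the wild-type libraries were close and every knockout line lay clearly above them. Both kept their call when any 1 library was left out.

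**Figure D2:**
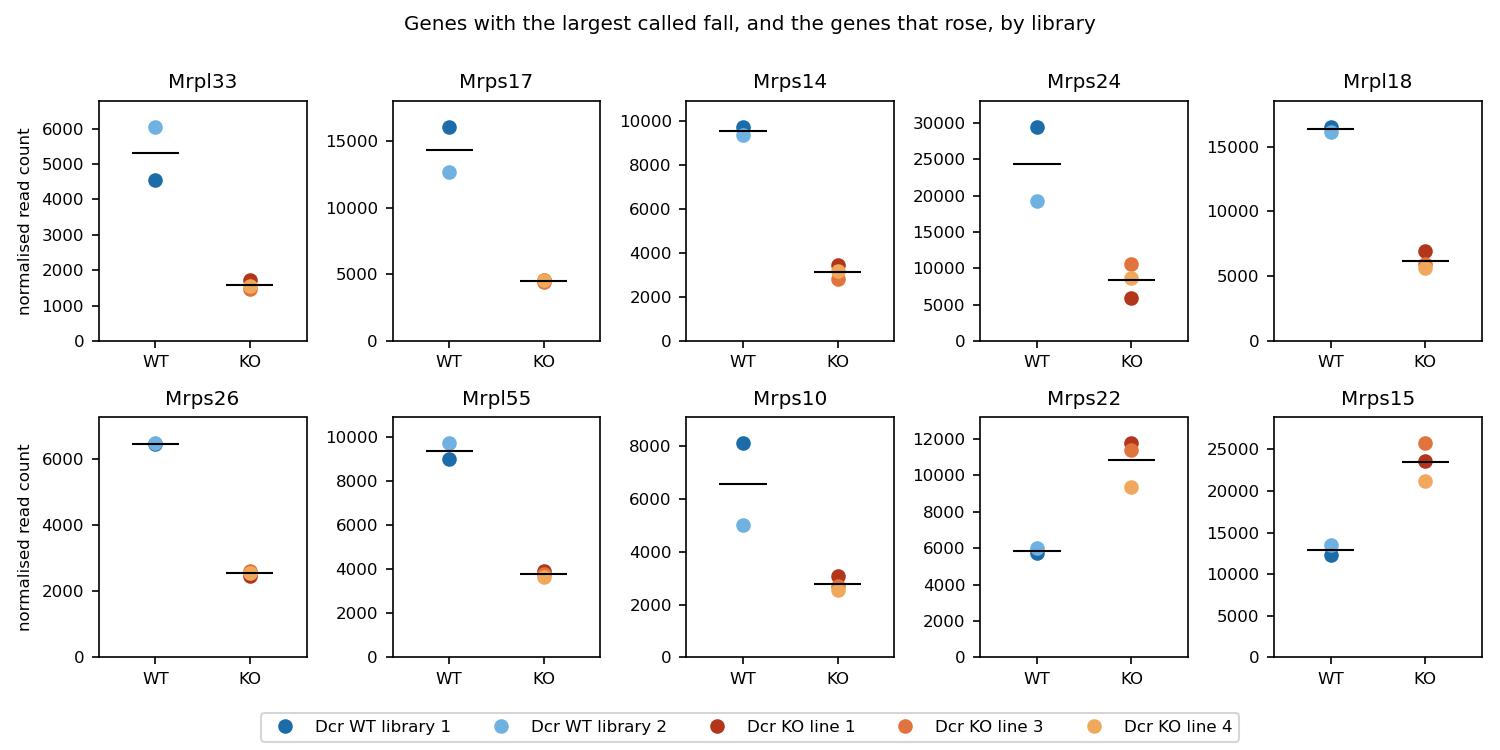
Normalised read count (vertical axis, from 0) of the 8 genes with the largest fall and the 2 that rose, with 1 point per library and a bar at each group mean (2 Dcr WT libraries, 3 Dcr KO lines). Genotypes do not overlap in any of the 10 panels.

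Core proteins shared with bacteria did not all change. Mrpl2 lies near the centre where peptide bonds form, and gave 19546 and 19362 in wild type against 10328, 9797 and 9989.5 (−0.95, limma adjusted p = 0.000765). Mrps12 lies at the decoding site, where the codon is read, and gave 12669.9 and 12483 against 7201, 6364 and 6257 (−0.93, limma adjusted p = 0.00126). Both genes therefore had nearly equal wild-type libraries and a fall of similar size. Mrpl3 and Mrpl16 of the large subunit and Mrps7 and Mrps5 of the small subunit did not pass. Their log2 fold changes were −0.36, −0.16, 0.04 and 0.00 (limma adjusted p = 0.108, 0.536, 0.865 and 0.985). All of these genes were picked after their values were seen. Of all 45 genes with a bacterial counterpart, 31 were lower.

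The stalk that recruits translation factors is built from Mrpl10 and Mrpl12, and Mrpl11 lies at its base. Mrpl12, which is also reported to bind the mitochondrial RNA polymerase, stood at 33952 and 22286 in wild type and 14615, 13549 and 11409 in the knockout lines (−1.07 ± 0.20, limma adjusted p = 0.00355). Mrpl11 stood at 16331 and 11839 against 8253, 7603 and 6372 (−0.92, limma adjusted p = 0.00511). Mrpl10 stood at 18029 and 16684 against 12157, 9923 and 10130.3 (−0.70, limma adjusted p = 0.00686). All 3 genes were lower in every knockout line than in either wild-type library, and the call of Mrpl10 was lost without Dcr KO line 3 (limma adjusted p = 0.0507).

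Mrpl57 and Mrpl44 have no bacterial ribosomal counterpart. Mrpl57 gave 7077 and 7068 in wild type against 4322, 4332 and 3711 (−0.78, limma adjusted p = 0.00386). Mrpl44, which carries an RNase III-like fold, gave 7791 and 6784 against 5542, 4885 and 4459 (−0.56, limma adjusted p = 0.0237), and its call was lost without Dcr KO line 3, Dcr KO line 4 or Dcr WT library 1 (limma adjusted p = 0.0969, 0.0793 and 0.0640). Mrpl15, among the genes with the most reads, fell from 41094 and 37335 to 23962, 23522 and 20287 (−0.80 ± 0.14).

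Several other genes did not pass, among them Mrpl17 and Mrps2, which had many reads. Mrpl17 stood at 29997 and 30972 in wild type and at 38827, 31671 and 29107 in the knockout lines. Mrps2 stood at 40424 and 26316 against 44022, 42716 and 37569.8, and Mrpl58, which releases stalled peptides, at 9320.4 and 6509 against 8441, 7885 and 7168. Genotypes overlapped in each of the 3. Mrps36, the gene whose protein is no longer counted as ribosomal, stood at 559.3 and 388.0 against 286.6, 319.3 and 365.8 and did not pass either (limma adjusted p = 0.126). The 3 Mrps18 paralogs did not pass (limma adjusted p = 0.0944 for Mrps18a, 0.229 for Mrps18b and 0.178 for Mrps18c).

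Genes of both subunits fell. Of 50 large-subunit genes, 28 were lower and 0 higher, with a median log2 fold change of −0.58, and of 26 small-subunit genes 13 were lower and 2 higher, with a median of −0.59. Genes with a bacterial counterpart were lower in 31 of 45 cases, with a median of −0.77, and those without one in 10 of 31 cases, with a median of −0.45. The same order held within the large subunit (22 of 29 against 6 of 21) and the small subunit (9 of 16 against 4 of 10). These counts describe the genes, and the difference between the classes was not tested.

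Values also differed within a genotype. The highest knockout line exceeded the lowest by a median of 1.21-fold, and the wild-type libraries differed by a median of 1.25-fold. Against the mean of the wild-type libraries, the median log2 difference was −0.48 in Dcr KO line 1, −0.57 in line 3 and −0.71 in line 4, where mRNAs had medians of 0.00, −0.03 and −0.12. Line 1 was above line 4 in 71 of the 77 genes. Wild-type library 1 was above library 2 in 57 of the genes, with a median log2 difference of 0.24, against 0.04 for mRNAs. Library 1 had the fewest reads of the 5 (101815723), and its column has another suffix than the other 4, which no label explains. The median fold change was therefore −0.44 without library 1 and −0.75 without library 2, fits that leave 1 wild-type library and assume that it varies like the knockout lines. In the 24 genes whose wild-type libraries lay within 1.1-fold of each other, chosen after their values were seen, the median was −0.80, and in the 4072 mRNAs chosen likewise it was −0.04.

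Of the 41 calls that were lower, 26 were kept whichever library was left out. Without Dcr KO line 3, 26 genes were lower and 2 higher. No called gene had a fold that moved by more than 1.5 times without a library (0 of 43). On whole reads recovered from the values, edgeR and DESeq2 each called 45 genes lower and 2 higher. Of all features, edgeR called 15.3% lower and 15.6% higher, and DESeq2 16.2% lower and 16.7% higher, and all 41 genes were lower in both. All 41 were also lower under each of 3 other scalings.

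Reads of some genes may be shared with another gene. The annotation places 19 of the 77 over part of another protein-coding gene, among them Mrpl2 (with Klc4), Mrpl18 (with Tcp1), Mrpl44 (with Wdfy1) and Mrpl57 (with Ska3). No source used here says whether strand was used in counting. Of the 58 genes without such an overlap, 33 were lower in Dcr KO. The annotation also lists 6 pseudogenes with Mrpl or Mrps symbols, which leave the counts of their parent genes uncertain.

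Fold changes also moved with gene length, a split chosen after the data were seen. Transcript lengths were not used here, and the span from the first to the last annotated base, introns included, stands in for length. Its median was 7749 bases in these genes and 22569.5 in mRNAs. In the shortest quintile of mRNAs, up to 7241 bases, the median log2 fold change was −0.34 and 30.7% were lower, while in the longest quintile the median was 0.27 and 13.9% were lower. Within the shortest quintile, the 35 mitochondrial ribosomal protein genes had a median of −0.78 and 22 were lower. In the second quintile the median was −0.23 for mRNAs, of which 28.9% were lower, and −0.44 for 27 genes, of which 13 were lower. In the third it was −0.10 for mRNAs, of which 23.4% were lower, and −0.36 for 9 genes, of which 3 were lower. The part of length in the fall was not tested further.

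**Figure D3:**
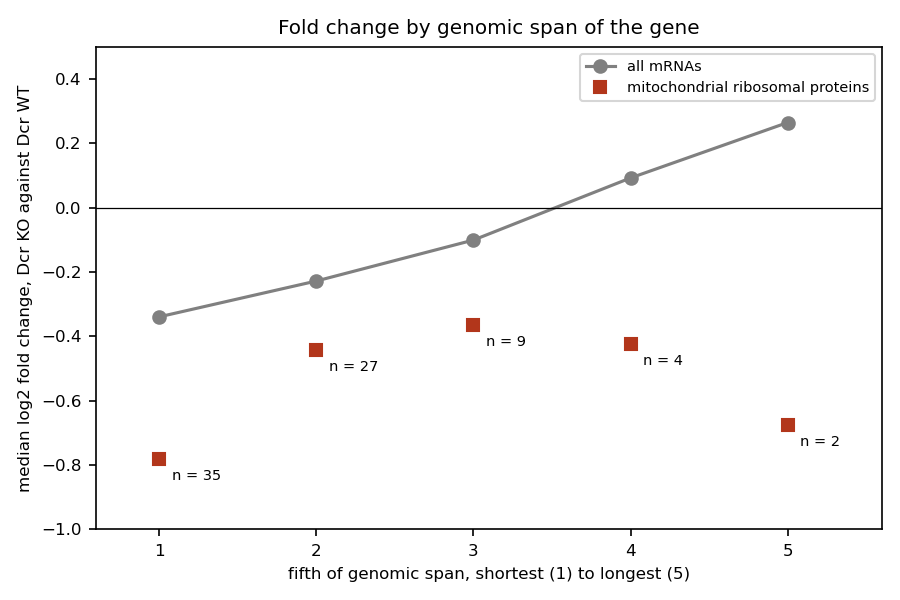
Median log2 fold change in Dcr KO against Dcr WT (vertical axis) by quintile of genomic span (horizontal axis, shortest to longest) for all mRNAs (circles) and mitochondrial ribosomal protein genes (squares, with the number of genes). Medians of mRNAs go from −0.34 to 0.27, and those of the ribosomal protein genes lie below them in every quintile, with 4 and 2 genes in the last ones.

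Other gene families for large complexes, collected by symbol after the data were seen, give a scale. Cytosolic ribosomal protein genes had a median log2 fold change of −0.80, with 48 of 84 lower and 5 higher. Genes of respiratory chain complexes and ATP synthase had a median of −0.54, with 37 of 79 lower and 0 higher. Proteasome subunit genes had a median of −0.24, with 12 of 47 lower and 4 higher. These are 57.1, 46.8 and 25.5% lower, and the last is near the 22.7% of all mRNAs. Differences between families were not tested.

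Genes of the wider machinery of mitochondrial translation are read against all mRNAs tested, of which 22.7% were lower and 20.5% higher. Of 25 genes for assembly of the mitochondrial ribosome and processing of its RNA, 13 were lower and 1 higher. Mpv17l2, an assembly factor (−1.41, limma adjusted p = 0.000464), and Ybey, an RNA-processing enzyme (−1.40), fell the most. Mtg2, a GTPase that matures the large subunit, rose by 0.50, a call that was lost without Dcr WT library 2 or any 1 knockout line (limma adjusted p up to 0.107). Without Dcr KO line 3, 8 of the assembly genes were lower. Of 18 genes for mitochondrial aminoacyl-tRNA synthetases and the glutamyl-tRNA amidotransferase, which charge the transfer RNAs, 7 were lower and 0 higher (9 and 0 at an unadjusted p under 0.05; edgeR and DESeq2 each 8 and 0). Hars2, which charges the histidine transfer RNA, was among those that fell (−1.03). Lars2 had very unequal wild-type libraries, at 287216 and 1553619 in libraries 1 and 2, and did not pass. Its wild-type mean of 920418 was far above the next highest of its list, at 37401, and the source of its reads was not tested.

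Of 12 translation factor genes, 1 was lower and 2 were higher, against 22.7 and 20.5% of mRNAs, so the counts say little of the list. Of the 12, Taco1, an activator of cytochrome oxidase subunit translation, fell (−0.53), and the release factor gene Mtrf1l (0.60) and the initiation factor gene Mtif3 (0.45) rose. Taco1 lost its call without Dcr KO line 3 or 4 or Dcr WT library 2 (limma adjusted p up to 0.145), and Mtrf1l and Mtif3 lost theirs without Dcr WT library 2 or any 1 knockout line (up to 0.107 and 0.124). Of 18 genes for expression and upkeep of the mitochondrial genome, 5 were lower and 1 higher, a count of lower genes near the 22.7% of mRNAs. Slirp, which stabilises mitochondrial mRNAs, fell by 1.28 and Polg2, the accessory subunit of the mitochondrial DNA polymerase, by 1.02 on the log2 scale. Tfb2m, a transcription initiation factor, rose by 0.83 and lost its call without Dcr KO line 1 or 3 (limma adjusted p = 0.0542 and 0.0516). Without Dcr WT library 2, 8 of these genes were lower.

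Ribosomal proteins with other symbols did not share 1 direction. Of the 3 measured, Chchd1 fell (−0.58), Ptcd3 rose (0.69) and Gadd45gip1 did not pass (0.08). Chchd1 lost its call without Dcr KO line 3 or 4 (limma adjusted p = 0.0957 and 0.0715), and Ptcd3 without line 1 or 3 (0.0767 and 0.0819). Of 10 transcription factors and coactivators that act on genes for mitochondrial proteins, Myc was lower and 0 were higher (1 at an unadjusted p under 0.05; edgeR and DESeq2 0 each). Nrf1 (0.15), Gabpa (0.35), Yy1 (0.12) and the coactivator Pprc1 (−0.08) did not pass. Mycn, of the same family as Myc, did not pass either (0.13, limma adjusted p = 0.540). Its mean was 86245 in Dcr WT, where Myc had 9231, and 94164 in Dcr KO. In the other comparison Mycn stood at 3172 in cMyc flox and 4649 in cMyc KO.

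The cMyc comparison has 1 library a group and hence no test. All 77 genes had at least 100 reads over both libraries. Past a ratio of 1.5, 2 genes were higher in cMyc KO and 0 lower, where 4.10% of all 13423 features with as many reads were higher and 5.04% lower. Of 11646 mRNAs, 466 were higher and 3.67% lower. The ratio was above 1 in 61 of the 77 genes (79.2%), against 64.2% of mRNAs and 61.3% of all features. The median log2 ratio was 0.14, against 0.11 for mRNAs. The genes took 0.369% of mRNA reads in cMyc flox and 0.389% in cMyc KO, and their summed normalised read counts were 59799 and 67988. Under other scalings the median of mRNAs moved to between −0.03 and 0.03 and that of the 77 genes to between 0.00 and 0.07, so levels are given relative to mRNAs: 46 of the 77 lay above the median mRNA.

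**Figure D4:**
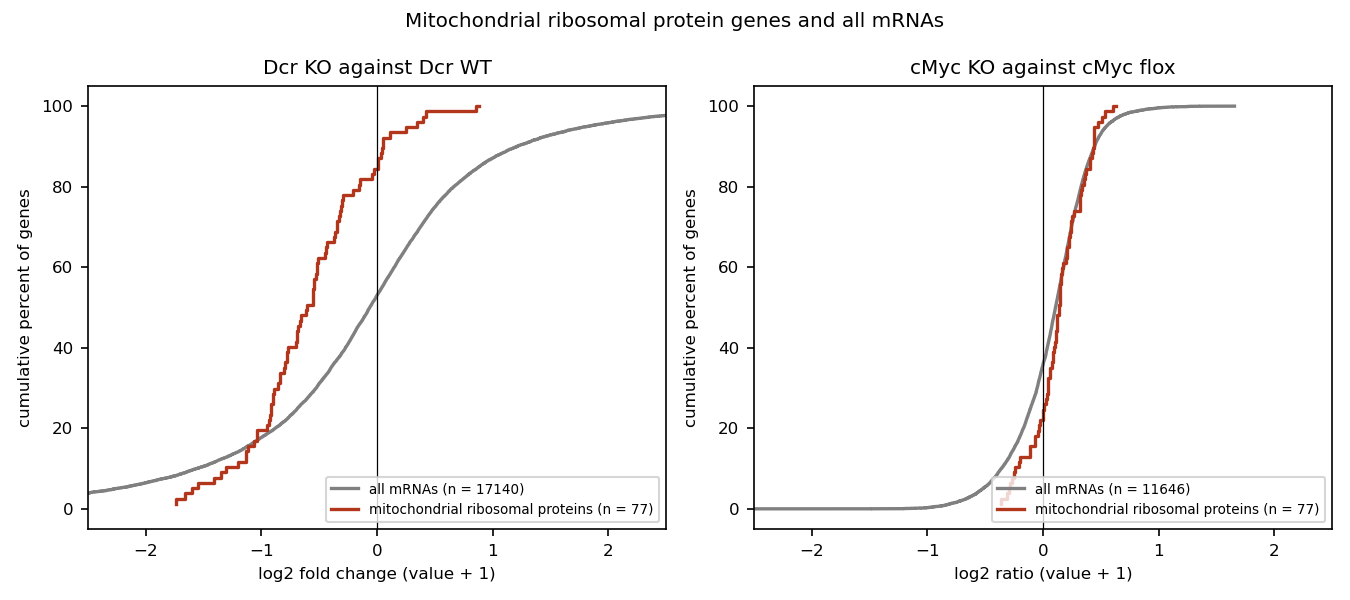
Cumulative percent of genes (vertical axis) by log2 fold change in Dcr KO against Dcr WT (left) and by log2 ratio of cMyc KO to cMyc flox (right), for all mRNAs (grey) and the 77 mitochondrial ribosomal protein genes (red). The red curve lies to the left of most of the grey curve in the Dicer comparison (medians −0.56 and −0.06) and close to it in the cMyc comparison (0.14 and 0.11).

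The 2 genes past the threshold were Mrpl55 and Mrps24. Mrpl55 went from 866.3 in cMyc flox to 1342 in cMyc KO (822 and 1481 reads), a ratio of 1.55 with a 95% interval of 1.42 to 1.69 that covers counting error only. Mrps24 went from 1556 to 2361.4, a ratio of 1.52 (1.42 to 1.62). Both genes were among those with the largest fall in Dcr KO, and both dropped below the threshold under each of 3 other scalings. Next came Mrpl51 (1.45, 1.28 to 1.63), Mrps34 (1.43, 1.25 to 1.64) and Mrpl22 (1.40, 1.18 to 1.65).

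At the low end, Mrpl21 went from 447.9 to 348.0 (425 and 384 reads), a ratio of 0.777 (0.675 to 0.894). Mrps6 had a ratio of 0.807, Mrpl50 of 0.816, Mrpl13 of 0.819 and Mrpl32 of 0.828, and the upper ends of their intervals ran up to 0.949. In the deposited values, where mRNAs had a median log2 ratio of 0.11, the counting interval lay above 1 in 35 of the 77 genes. It lay below 1 in 8 of the 77. Among the 11646 mRNAs it lay above 1 in 4669 (40.1%) and below 1 in 2185 (18.8%).

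Genes that fell in Dcr KO had cMyc ratios close to those of the other genes. The median log2 ratio in cMyc KO was 0.14 in the 41 genes that were lower in Dcr KO and 0.15 in the other 36. Of the 41, 24 lay above the median mRNA, and of the 36, 22 did. Across the 77 genes, which share their libraries, the Dcr fold change and the cMyc ratio had a Pearson r of 0.01 and a Spearman rho of 0.07, given as a description. Mrpl33, lowest in the Dicer comparison, had a ratio of 0.864 (0.754 to 0.990). Mrps15 and Mrps22, which rose in Dcr KO, had ratios of 1.06 and 0.952 with intervals that include 1. Their log2 ratios were 0.08 and −0.07, both under the 0.11 of the median mRNA.

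**Figure D5:**
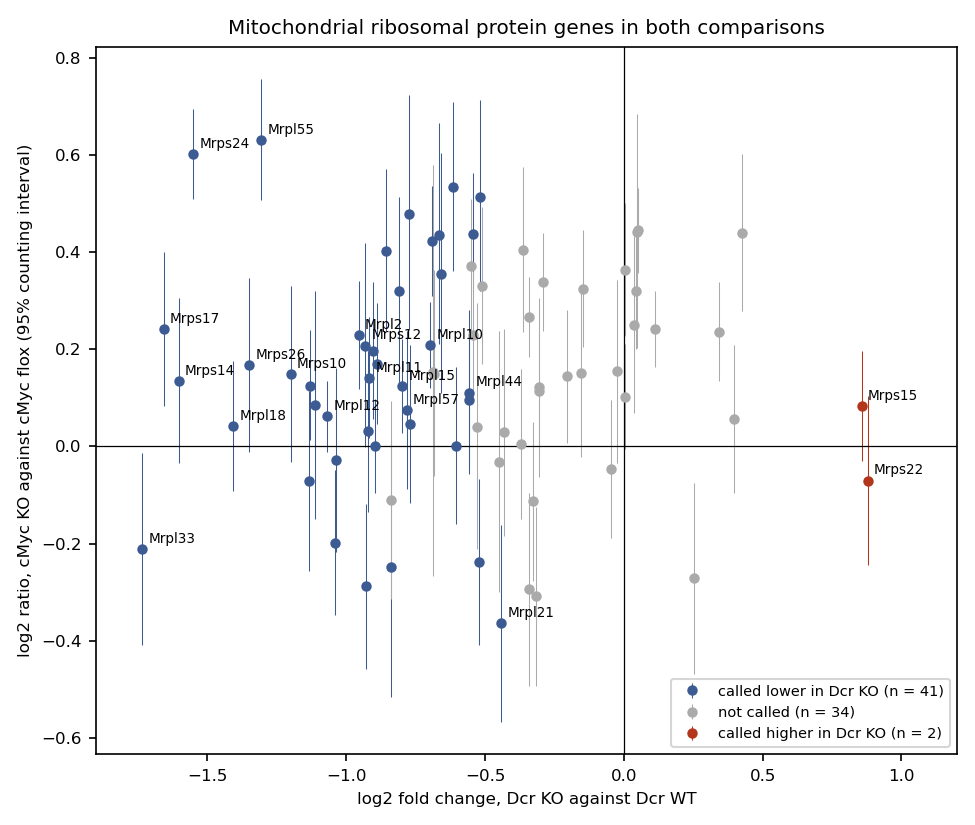
Log2 ratio of cMyc KO to cMyc flox (vertical axis, with 95% counting intervals) against log2 fold change in Dcr KO (horizontal axis) for the 77 genes, coloured by the call in Dcr KO (41 lower, 34 not called, 2 higher). No relation is seen (r = 0.01), and genes that were lower in Dcr KO lie on both sides of 0.

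Start-site regions of the genes hold several short motifs known from genes for mitochondrial proteins. RefSeq windows of 250 bases before to 50 after the annotated start (GRCm38.p6) matched 68 of the 77 genes by symbol, and a match on either strand in any window of a gene was counted. CCGGAAG, the core bound by ETS factors such as Gabpa, was in 38.2% of the 68 genes, 9.93% of all 27025 genes with a window and 16.1% of genes with a tested mRNA. AAGATGGC, the core bound by Yy1, was in 17.6, 3.19 and 4.31%. The NRF1 motif, GCGC followed by NN and again GCGC, was in 20.6% of the 68 genes, 1891 of the 27025 and 12.5% of genes with a tested mRNA. CACGTG, the E-box that Myc and its partner Max can bind, was in 7.35, 8.09 and 10.8%. CCAAT was in 39.7, 41.1 and 42.7%, and GGGCGG, the GC box, was in 34 of the 68 genes, 38.2% of all and 62.4% of those with a tested mRNA. Matches of different motifs may overlap, and a match is only a run of letters.

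These motifs were spread over genes that fell and genes that did not. Of the 36 genes with a window that were lower in Dcr KO, 15 held CCGGAAG, 8 the NRF1 motif, 7 AAGATGGC and 3 CACGTG, and of the other 32 genes 11, 6, 5 and 2 did. The 120 bases before the start are shown for the 4 genes with the largest fall whose stretch holds one of the first 4 motifs (Mrps26, Mrpl34, Mrps21 and Mrpl12, with log2 fold changes of −1.35, −1.13, −1.11 and −1.07) and for the 2 genes that rose, taken whether or not they hold one, so the stretches do not compare motif presence between directions. Capitals mark the motif, which may lie on either strand. The first 2 genes hold CCGGAAG, the next 2 hold the NRF1 motif, and among the genes that rose Mrps22 holds CCGGAAG 11 bases before the start while the Mrps15 stretch holds none of the 4. Sequences and positions are RefSeq's for GRCm38.p6, read 5′ to 3′ along the gene: Mrps26 on the plus strand at chr2:130563637-130563756, Mrpl34 (plus) at chr8:71464806-71464925, Mrps21 (minus) at chr3:95871515-95871634, Mrpl12 (plus) at chr11:120484517-120484636, Mrps22 (minus) at chr9:98601680-98601799 and Mrps15 (plus) at chr4:126046808-126046927.
Mrps26: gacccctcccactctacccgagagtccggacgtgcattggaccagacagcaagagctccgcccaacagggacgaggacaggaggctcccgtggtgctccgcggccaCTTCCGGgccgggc
Mrpl34: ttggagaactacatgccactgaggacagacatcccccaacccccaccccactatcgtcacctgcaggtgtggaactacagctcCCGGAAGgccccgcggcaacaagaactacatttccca
Mrps21: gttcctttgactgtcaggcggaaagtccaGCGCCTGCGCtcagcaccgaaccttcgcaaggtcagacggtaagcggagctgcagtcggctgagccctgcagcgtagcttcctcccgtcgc
Mrpl12: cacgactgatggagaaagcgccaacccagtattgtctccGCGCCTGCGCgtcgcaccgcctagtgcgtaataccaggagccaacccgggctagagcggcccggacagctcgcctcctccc
Mrps22: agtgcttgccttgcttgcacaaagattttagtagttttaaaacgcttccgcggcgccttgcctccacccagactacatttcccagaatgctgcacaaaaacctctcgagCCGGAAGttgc
Mrps15: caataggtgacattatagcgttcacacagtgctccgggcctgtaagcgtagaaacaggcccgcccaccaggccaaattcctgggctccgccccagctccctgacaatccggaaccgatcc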

How the data were processed

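The authors deposited a normalised signal for each feature, which the values show to be a read count over a factor that is fixed within a library. Dividing by that factor gave whole reads, within 0.01 read, for 100% of values in each of 7 columns. The submitters' processing notes list TopHat, Bowtie, DESeq and mm9 without a role. The counter and filters are not stated. No value column lacked a sample (0). RefSeq identifiers were named from an annotation of GRCm38.p6 (19359 of 19683 coding entries in the Dicer table, 16243 of 16484 in the cMyc table). Its spans and windows are of that build and were not joined to mm9 coordinates.

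The Dicer genotypes were tested in limma 3.58.1 under R 4.3.3 (trended empirical Bayes, two-sided) on log2(value + 1), keeping features that reach 1 in 2 or more libraries and adjusting over all of them. Fold changes are on that scale. Alternatives were pseudocounts 0.5 and 10, other filters and scalings, edgeR 4.0.16 and DESeq2 1.42.0 on recovered reads, and each library left out. On simulated data with 42506 features, the Dcr fit recovered 48% of 1.5-fold and 94% of 2-fold changes. The simulation gave every feature the same fixed dispersion and changed only a small set of features above a minimum mean. The real spread and the real number of changes differ, so these figures do not give the power of the real comparison. cMyc ratios have exact 95% binomial intervals on reads.

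The genes and lists were chosen with earlier results of these data known. Named were the 8 largest called falls and all called rises, the 5 highest and 5 lowest cMyc ratios, and the 2 largest calls each way per related list; genes named for a role or for overlap between genotypes were chosen after their values were seen. A planned naming by level per length was not done, since transcript lengths were not used here. The 4 chromatin libraries were not analysed here. One gene that the naming rule selects is not reported here.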

Additional observations from a re-analysis of the deposited data

How the results depend on the processing

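Leaving out 1 library at a time gave 26 to 51 lower and 2 to 5 higher genes in Dcr KO, with a median log2 fold change of −0.75 to −0.44. Over the same sets, ribosomal proteins with other symbols had 0 to 1 lower and 0 to 1 higher, assembly genes 8 to 13 and 0 to 1, translation factors 0 to 3 and 0 to 2, tRNA charging genes 5 to 9 and 0 to 1, mitochondrial genome genes 4 to 8 and 0 to 1, and regulators 1 and 0 to 1. With median-ratio scaling over mRNAs 4 of the 77 genes and 1 regulator were higher. For translation factors, 2 were lower in edgeR, in DESeq2, with no filter and with the stricter filter, 3 under total count scaling and 4 under upper quartile scaling, and 0 were higher under the last 2; 0 assembly genes were higher under upper quartile scaling. In cMyc KO, 0 genes were past 1.5-fold and the median log2 ratio was 0.0029 under total count, 0.0699 under upper quartile and 0.0388 under median-ratio scaling over mRNAs. The cause of these shifts was not tested. For named genes in Dcr KO, 432 of 462 values under the alternatives kept direction and side of the threshold, 30 were no longer called and 0 reversed. No paired analysis was possible because Dcr WT and Dcr KO share only the replicate number 1. The number of libraries, 2 of wild type and 1 per cMyc group, limits the precision, and cMyc intervals cover counting error only.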
